A study of Mus musculus with 32 samples.

Results

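The transcriptome of mouse CD4+ T cells stimulated in the presence of the compound CompA was compared with that of unstimulated cells, both from animals labelled as lacking Nur77 (KO), a nuclear receptor encoded by Nr4a1. The comparison takes every library with these 2 labels, 4 of stimulated cells with CompA (KO CompA) and 4 of unstimulated cells (KO unstimulated), 8 of the 32 RNA sequencing libraries of the series. Its question is which parts of T cell activation occurred with the compound present. All cells were CD4 positive T cells from C57BL/6J mice, taken from the spleen together with lymph nodes of the inguinal and axillary sites. KO CompA cells were labelled as Nur77KO and stimulated through CD3 and CD28 by antibodies for 12 h together with CompA at 10 µg/ml. For contrast, 4 libraries each were used of KO cells stimulated with XCT790 at 10 µg/ml, which acts as an inverse agonist on ERR-alpha (an orphan nuclear receptor related to estrogen receptors), of KO cells stimulated for 12 h without an inhibitor, of wild-type (WT) cells stimulated with CompA, of WT cells stimulated without an inhibitor and of WT unstimulated cells. KO unstimulated cells carry the same genotype label, and unstimulated cells of both genotypes are titled as such with control as the agent, although the protocol text describes stimulation without excepting them. Unstimulated cells were taken as 0 h of stimulation against 12 h, so effects of stimulation and of time in culture cannot be told apart. CompA is known here only by its code, and neither the kind of Nr4a1 allele nor the vehicle is stated. The labels do not tie the 4 replicates of a group to separate mice, so p-values measure the spread between these libraries, which may be technical.

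A T cell is activated when its antigen receptor, here engaged through CD3, and the costimulatory receptor CD28 signal together. Immediate-early transcription factors of the AP-1, EGR and NR4A families and the factors NFAT and NF-kB then switch on cytokines and activation receptors. Over the following hours the cell leaves its resting program, builds ribosomes, takes up amino acids and glucose, expands its mitochondria and prepares to copy its DNA.

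Values are read counts per gene expressed as CPM (counts per megacount of the library) after scaling by TMM factors, a normalization that centres the bulk of genes. A gene was called higher or lower at an adjusted p under 0.05 in edgeR's quasi-likelihood test with Benjamini-Hochberg adjustment over the 12332 genes tested. Log2 fold changes are KO CompA over KO unstimulated unless another pair is named, with the standard error of the fit after ±, and levels after ± carry the SD of 4 libraries. The KO CompA libraries held 16020288 to 20386408 counts in genes and the KO unstimulated libraries 18640919 to 21210758. Of reads counted in genes, as ambiguous or in no feature, those in no feature were 5.85% to 7.72% in KO CompA and 9.12% to 13.3% in KO unstimulated libraries. A count was found for 13296 to 13717 genes in KO CompA against 14676 to 15148 in KO unstimulated libraries. Neither pair of ranges overlaps, and the part of this in the results was not tested.

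Nr4a1 (chr15:101253902-101274795 in GRCm38), the gene named in the knockout, checks the label first. It stood at 786, 520.2, 415 and 469 CPM in the KO CompA libraries, against 86.2, 93.4, 87.2 and 109.8 CPM in the KO unstimulated libraries. The transcript was present in all 8 libraries and rose with stimulation under CompA (log2 fold change 2.54 ± 0.24, adjusted p = 1.4e-10). WT unstimulated cells had 71.6 ± 21.4 CPM, so the KO-labelled cells showed no loss of this transcript. Counts per gene do not show which exons the reads came from, the protein was not measured, and KO is used below as the name of the label only.

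The markers of the labelled cell type were present: Cd3e, a chain of the CD3 complex, averaged 288 ± 15.6 CPM with CompA and 449 ± 11.1 CPM unstimulated, and Cd4 averaged 459.9 ± 62.6 CPM with CompA and 903 ± 26.4 CPM unstimulated. The summed level of 16 T cell identity genes was 6525 to 7370.5 CPM in KO CompA libraries and 7629 to 8042 CPM in KO unstimulated libraries (exact two-sided permutation p = 0.0286). Of its 16 tested members 8 fell and 2 rose, where of all tested genes 39.3% fell and 39.2% rose. The macrophage and dendritic sum and the stromal and endothelial sum moved far more. The 24 macrophage and dendritic cell markers summed to 61.5 to 135.5 CPM with CompA and 1246 to 2898 CPM unstimulated (exact two-sided permutation p = 0.0286, the smallest that 4 against 4 libraries allow), with all 23 tested members lower and 2 of the 24, Vsig4 and Cd209a, at 0 in every KO CompA library. The 16 stromal and endothelial markers summed to 20.3 to 35.0 CPM with CompA and 187.3 to 204.1 CPM unstimulated (exact p = 0.0286), with 8 of the 16 at 0 with CompA, Col3a1, Pdgfra, Pdgfrb, Vwf and Dcn among them. The 15 CD8, NK and cytotoxic markers summed to 88.2 to 116 CPM with CompA and 141.2 to 220.3 CPM unstimulated (exact p = 0.0286). The sums of 15 erythroid, platelet and granulocyte markers overlapped between the groups (exact p = 0.5429). In bulk RNA, fewer cells of a type and less RNA per cell cannot be told apart. B cell markers split the libraries by replicate number instead (exact p = 0.2857 between the groups). Replicate 2 summed to 465 CPM with CompA and 1346 CPM unstimulated, while the other 3 libraries of each group held 111.1 to 124.7 CPM with CompA and 183.7 to 323.4 CPM unstimulated. Cd8a was also highest in replicate 2 of both groups, at 7.92, 28.8, 8.01 and 8.9 CPM in the KO CompA libraries, against 7.03, 27.3, 7.59 and 6.98 CPM in the KO unstimulated libraries. The part of these differences in the results below was not tested, and counts are therefore also given without replicate 2 of every KO treatment.

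**Figure D1:**
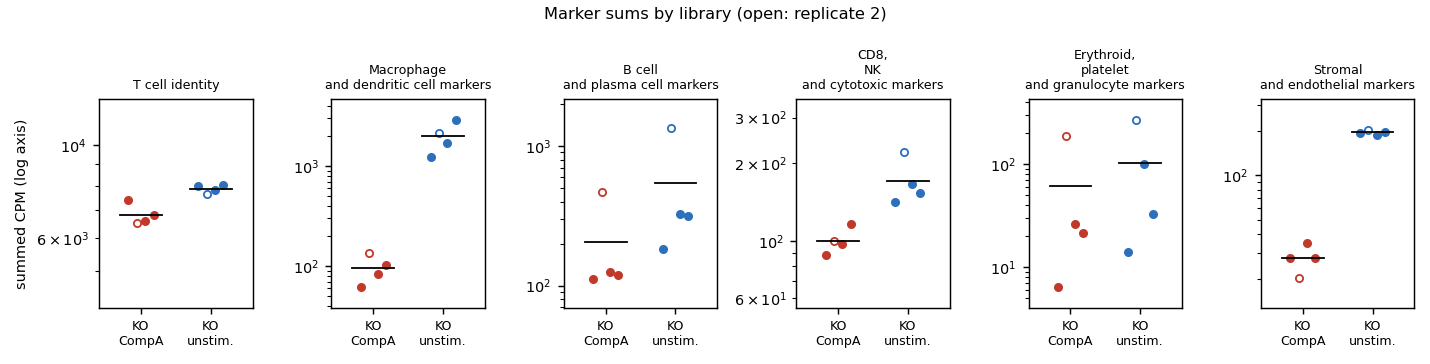
Summed CPM (log axis) of 6 marker lists in each library, KO CompA on the left and KO unstimulated on the right of each panel, with replicate 2 as open symbols and a bar at the mean. The macrophage, stromal and cytotoxic sums do not overlap between the groups, the T cell sums differ by less than 1.5 times, and replicate 2 is the highest library for the B cell and the erythroid, platelet and granulocyte sums in both groups.

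Most of the transcriptome differed between KO CompA and KO unstimulated cells. Of the 12332 genes, 9671 (78.4%) passed the test, 4829 higher (39.2%) and 4842 lower (39.3%). With a log2 fold change of at least 1 as well, 2476 genes (20.1%) were higher and 3075 (24.9%) lower. Without replicate 2 of every KO treatment the counts were 4726 higher and 4755 lower. With library totals in place of TMM factors the median over all genes tested moved by -0.278 on the log2 scale, and 3813 genes were higher and 5871 lower, 39.4% of called genes higher against 49.9% under TMM. Directions of genes with small changes therefore rest on the scaling, and the lists below are read against a median of -0.012 over all genes tested. Counts of list members are read beside the 39.2% of all tested genes that were higher and the 39.3% that were lower.

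An activation program was defined in WT libraries, which share the fit but belong to neither group compared. Nearly all of it was called in the same direction in KO CompA cells. The WT stimulated libraries that define it stand apart. Against WT unstimulated cells their lowest log2 fold change of any tested gene was -3.38, whereas 857 genes lay at or below -4 in WT CompA cells and 517 in KO stimulated cells, each against unstimulated cells of its genotype. Fos, for example, stood at 61.5, 235, 115 and 86.2 CPM in the WT stimulated libraries, 11.3, 10.9, 7.3 and 5.84 CPM in the KO stimulated libraries and 307, 593, 341 and 390.0 CPM in the WT unstimulated libraries. The program is therefore given with these libraries and also from WT CompA libraries in their place. Stimulation without an inhibitor in WT cells, against WT unstimulated cells, called 1965 genes (15.9%) at least 1 log2 unit higher and 2485 (20.2%) at least 1 log2 unit lower. Of the 1965, 1855 (94.4%) were also higher in KO CompA than in KO unstimulated cells, 4 were lower and 106 were not called, with a median log2 fold change of 1.66. Of the 2485, 2360 (95.0%) were lower, 2 higher and 123 not called, with a median of -2.19. From WT CompA against WT unstimulated cells, a set chosen after the data were seen, 2303 of 2392 raised genes (19.4% of all tested were raised) were higher in KO CompA cells, or 96.3%, and 3119 of 3306 lowered genes (26.8% of all tested were lowered) were lower, or 94.3%. Macrophage and dendritic markers, whose sum was 1123 ± 498 CPM in WT stimulated and 3907 ± 682 CPM in WT unstimulated cells, moved with the lowered set, and their part was not tested. Stimulation without CompA in KO cells, which shares the 4 KO unstimulated libraries, called 4851 genes higher (39.3%) and 5225 lower (42.4%) in all (3795 and 6334 with library totals), among them 1914 of the 1965 higher (median 1.91) and 2419 of the 2485 lower (median -2.48). The direct test of KO CompA against KO stimulated cells called 647 of the 1965 lower and 27 higher, and 403 of the 2485 higher and 30 lower, where of all tested genes it called 10.2% higher and 9.11% lower. The 4 genes that WT stimulation raised and that were lower with CompA were Cst7, Enox1, Grhl1 and Rgs1, and the 2 in the other direction were Dcbld1 and Mt1, all chosen after their values were seen. Cst7, which encodes the cysteine protease inhibitor cystatin F, stood at 43, 43.7, 40.6 and 55.4 CPM in the KO CompA libraries, against 48, 67.4, 64.4 and 76.1 CPM in the KO unstimulated libraries (log2 fold change -0.49 ± 0.13, adjusted p = 0.0014). Its ranges overlap, with the highest KO CompA library above the lowest unstimulated one. The calls of the other 5 were lost under at least 1 alternative fit.

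**Figure D2:**
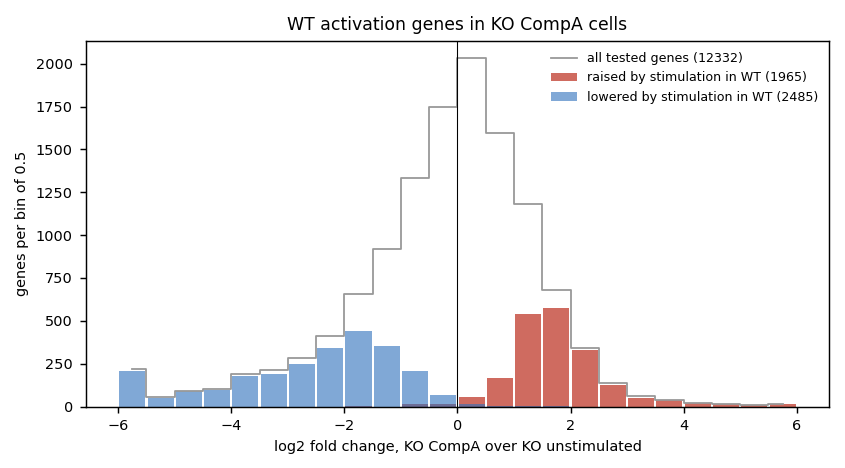
Number of genes by log2 fold change of KO CompA over KO unstimulated (bins of 0.5, ends pooled), for the 1965 genes that stimulation raised in WT cells, the 2485 that it lowered and all 12332 tested. The raised set lies almost wholly right of 0 (median 1.66) and the lowered set left of 0 (median -2.19).

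The largest rises included a chemokine, a cytokine and 2 transcription factors. The 10 largest, among called genes with at least 10 CPM and no overlap between libraries, were Ccl22, Crabp2, Serpinb9b, Fosl1, Il2, Ak4, Akr1c18, Tg, Rpph1 and Irf4, with log2 fold changes of 8.08 to 5.13. The share of all tested genes whose KO CompA libraries all lay above the KO unstimulated ones was 36.1%. Ccl22 (chr8:94745684-94751388), a chemokine that attracts CCR4-bearing T cells, stood at 172, 49.5, 196 and 319.6 CPM in the KO CompA libraries, against 0.508, 0.878, 0.33 and 1 CPM in the KO unstimulated libraries (log2 fold change 8.08 ± 0.73, adjusted p = 5.4e-11). The lowest KO CompA library was replicate 2, and it still lay far above all 4 unstimulated libraries. Irf4 (chr13:30749233-30766981), a transcription factor whose dose follows receptor signal strength, stood at 1408, 1724, 1685 and 1607 CPM in the KO CompA libraries, against 35.6, 47, 46.2 and 54.7 CPM in the KO unstimulated libraries (log2 fold change 5.13 ± 0.14, adjusted p = 2.6e-21). Its libraries were close together within each group and far apart between groups. Crabp2, a carrier of retinoic acid, averaged 20.4 ± 14.4 CPM with CompA and 0.0729 ± 0.0615 CPM unstimulated, and Ak4, a mitochondrial adenylate kinase, averaged 29.4 ± 12 CPM with CompA and 0.435 ± 0.128 CPM unstimulated.

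Of the cytokine genes, 13 of 20 tested rose and 4 fell, with a median log2 fold change of 2.71 (KO stimulated over KO unstimulated, 14 rose, 3 fell, median 3.26). Il2, the T cell growth factor, stood at 68.9, 124, 46.7 and 64.6 CPM in the KO CompA libraries, against 0.742, 0.966, 0.991 and 0.959 CPM in the KO unstimulated libraries (log2 fold change 6.37 ± 0.48, adjusted p = 1.1e-12). All 4 KO CompA libraries lay far above the unstimulated ones, which stayed under 1 CPM. Its promoter is shown because Il2 is the cytokine among the 10 largest rises and 2 copies of the NFAT core stand in it. Capitals mark GGAAAA on either strand, 137 and 48 bases before the transcript start, in RefSeq sequence of GRCm38.p6 (chr3:37125905-37126204, minus strand), 250 bases before to 50 after the start.
Il2: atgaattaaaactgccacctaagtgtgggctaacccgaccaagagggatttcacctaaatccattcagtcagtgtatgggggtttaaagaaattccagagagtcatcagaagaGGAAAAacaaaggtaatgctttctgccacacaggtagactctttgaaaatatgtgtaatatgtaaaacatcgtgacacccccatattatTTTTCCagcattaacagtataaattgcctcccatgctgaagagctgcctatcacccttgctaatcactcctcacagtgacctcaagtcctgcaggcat
This core was found in 40% of 20 cytokine promoters with a sequence, in 21.2% of 2391 promoters of genes that rose by at least 1 log2 unit and in 20.6% of 12530 promoters of tested genes. It is a short word, so these shares describe letters only. Ifng, the macrophage-activating cytokine of type 1 helper cells, stood at 78.3, 66.4, 159.7 and 120.3 CPM in the KO CompA libraries, against 13.6, 7.72, 21.6 and 16.8 CPM in the KO unstimulated libraries (log2 fold change 2.83 ± 0.38, adjusted p = 1.3e-07). Tnf, an inflammatory cytokine, averaged 58.8 ± 20.9 CPM with CompA and 10.5 ± 0.686 CPM unstimulated (log2 fold change 2.48 ± 0.27, adjusted p = 2e-09). Il3, a growth factor for myeloid cells, had no count in any KO unstimulated library and 3.15, 3.13, 1.93 and 5.95 CPM with CompA, at least 113-fold higher by the bound of 3 counts over the unstimulated group. Il21, a helper cytokine for B cells, went the other way, at 5.62, 7.26, 9.71 and 15.1 CPM in the KO CompA libraries, against 26.3, 29.4, 37.7 and 56.4 CPM in the KO unstimulated libraries (log2 fold change -1.99 ± 0.36, adjusted p = 1.3e-05). Il4, the type 2 cytokine, averaged 0.881 ± 0.909 CPM with CompA and 1.24 ± 0.616 CPM unstimulated and did not pass the test (adjusted p = 0.5).

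Chemokine genes rose in 7 of 10 cases and fell in 1. Ccl3 and Ccl4, both inflammatory chemokines, rose with log2 fold changes of 3.59 and 4.73. Ccl4 was highest with CompA in replicate 2, at 112, 282, 94.8 and 103 CPM in the KO CompA libraries. Ccl5, a chemokine of memory and cytotoxic cells, fell to 6.27 ± 2.45 CPM with CompA, against 71.9 ± 17.1 CPM unstimulated (log2 fold change -3.53 ± 0.35, adjusted p = 4.3e-10).

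Transcription factors of the signal split in direction. All 3 NR4A genes rose. Nr4a3 stood at 141, 102, 146 and 110.3 CPM in the KO CompA libraries, against 12.5, 12.8, 12.8 and 14.3 CPM in the KO unstimulated libraries (log2 fold change 3.25 ± 0.18, adjusted p = 2.6e-15), and Nr4a2 at 16.1 ± 2.14 CPM with CompA and 4.42 ± 0.723 CPM unstimulated (log2 fold change 1.86 ± 0.27, adjusted p = 6.4e-07). In both genes every KO CompA library lay above every unstimulated one. Of the AP-1 and BATF genes 3 of 12 rose and 7 fell, where of all tested genes 39.2% rose and 39.3% fell. Fosl1, a FOS-family partner in AP-1, averaged 12.5 ± 3.66 CPM with CompA and 0.0631 ± 0.0563 CPM unstimulated (log2 fold change 7.49 ± 0.51, adjusted p = 1.3e-13). Fos itself stood at 11.1, 14.1, 9.71 and 11.5 CPM in the KO CompA libraries, against 597, 417, 558 and 711 CPM in the KO unstimulated libraries (log2 fold change -5.62 ± 0.33, adjusted p = 5.5e-15), and Junb averaged 365 ± 25.1 CPM with CompA and 2094 ± 977 CPM unstimulated (log2 fold change -2.52 ± 0.27, adjusted p = 2.1e-09). The unstimulated cells held the higher level of both genes, and Junb in their replicate 2, at 665 CPM, was lower than in the other 3 but above the 4 KO CompA libraries. Of the EGR and immediate-early genes 7 of 13 rose and 4 fell, against 39.2% and 39.3% of all tested genes. The sign of the list's median (0.22) turned with library totals (-0.059). Egr2, a factor of anergy and tolerance, averaged 73 ± 11.6 CPM with CompA and 31.9 ± 4.48 CPM unstimulated (log2 fold change 1.2 ± 0.14, adjusted p = 1.8e-08), and Egr1 averaged 109 ± 32.8 CPM with CompA and 139 ± 7.48 CPM unstimulated without passing the test (adjusted p = 0.15, and 0.0221 at a log2 fold change of -0.579 without replicate 2 of every KO treatment). It was called lower as well without replicate 2 of KO CompA alone (adjusted p = 0.0225), with library totals (0.0154), upper-quartile factors (0.0201) and the replicate block (0.00802), and the largest adjusted p of any alternative was 0.339. Of the NFAT, NF-kB and lineage factors 11 of 20 rose and 6 fell, against 39.2% and 39.3% of all tested genes. Myc, which drives growth of the activated cell, stood at 462, 388, 464 and 478 CPM in the KO CompA libraries, against 73, 50.4, 69.8 and 67.4 CPM in the KO unstimulated libraries (log2 fold change 2.78 ± 0.14, adjusted p = 2.4e-16). Tbx21, the master factor of type 1 helper cells, averaged 107 ± 39.6 CPM with CompA and 17.7 ± 4.07 CPM unstimulated (log2 fold change 2.59 ± 0.31, adjusted p = 1.7e-08), and Nfkb1 averaged 649.8 ± 80.4 CPM with CompA and 359 ± 13.8 CPM unstimulated (log2 fold change 0.86 ± 0.15, adjusted p = 9.4e-06).

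**Figure D3:**
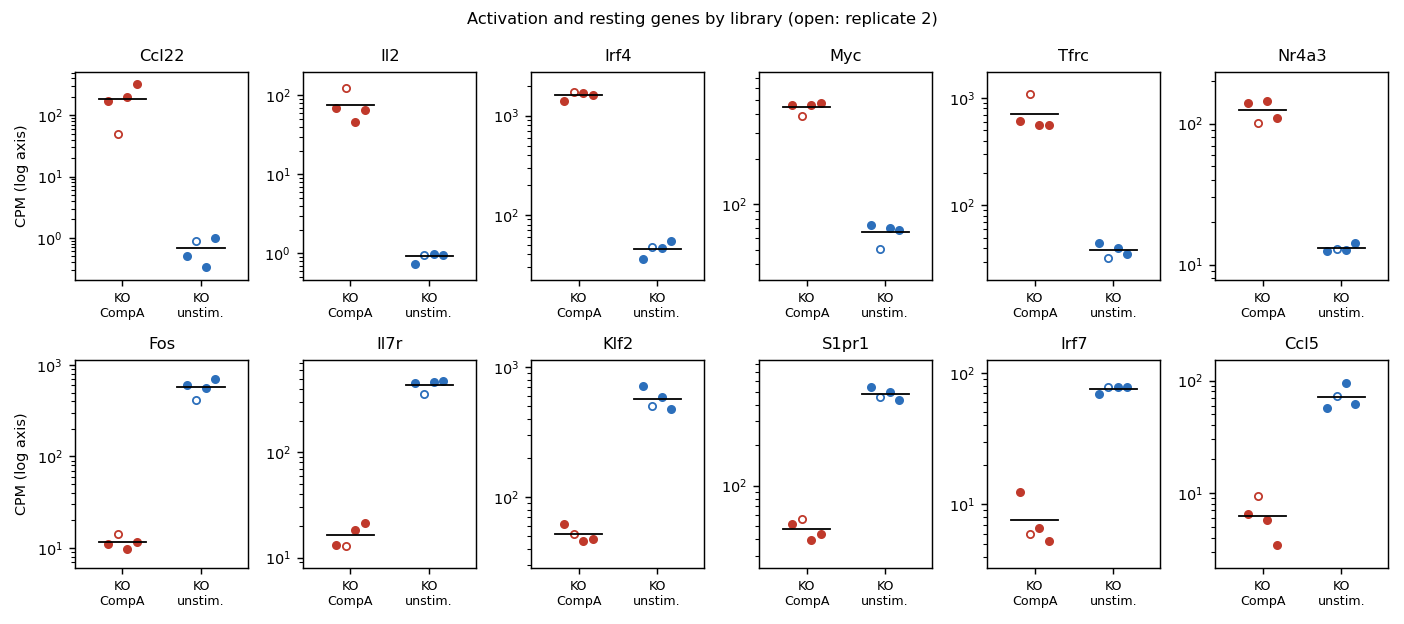
CPM (log axis) of 12 genes in each library, KO CompA on the left and KO unstimulated on the right of each panel, with replicate 2 as open symbols and a bar at the mean. In the 6 upper panels (Ccl22, Il2, Irf4, Myc, Tfrc, Nr4a3) every KO CompA library lies above every unstimulated one, and in the 6 lower panels (Fos, Il7r, Klf2, S1pr1, Irf7, Ccl5) every one lies below.

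Of the activation receptors 10 of 18 tested rose and 1 fell, with a median log2 fold change of 0.97, where of all tested genes 39.2% rose and 39.3% fell. Cd69, the early marker that retains cells in lymphoid tissue, stood at 469, 635, 402 and 435 CPM in the KO CompA libraries, against 159, 68.7, 145 and 187 CPM in the KO unstimulated libraries (log2 fold change 1.79 ± 0.24, adjusted p = 9.5e-08). Il2ra, the alpha chain of the high-affinity IL-2 receptor, averaged 599.9 ± 115 CPM with CompA and 79.9 ± 4.83 CPM unstimulated (log2 fold change 2.91 ± 0.17, adjusted p = 4.8e-15). Tfrc, which brings in iron, stood at 606, 1090.4, 565 and 564 CPM in the KO CompA libraries, against 44.7, 32.7, 40.5 and 35.5 CPM in the KO unstimulated libraries (log2 fold change 4.2 ± 0.28, adjusted p = 1e-13). Replicate 2 was the highest with CompA, and the groups lay far apart. Il2rb, the beta chain, averaged 367 ± 76.6 CPM with CompA and 376 ± 71 CPM unstimulated and did not pass the test (adjusted p = 0.85). Among genes of IL-2 receptor signalling 7 of 15 rose and 6 fell, against 39.2% and 39.3% of all tested genes. Cish and Socs1, feedback inhibitors induced by STAT5, rose with log2 fold changes of 2.1 and 1.66, and Socs3, an inhibitor of IL-6 family signals, fell by 1.8 on the log2 scale. Inhibitory receptors and Tox were 6 higher and 7 lower of 16, shares near those of all tested genes (39.2% and 39.3%). Lag3, an inhibitory receptor for MHC class II, averaged 323 ± 94.3 CPM with CompA and 141 ± 41.5 CPM unstimulated (log2 fold change 1.19 ± 0.23, adjusted p = 4.4e-05), while Tox, a factor of T cell exhaustion, averaged 50.1 ± 10.3 CPM with CompA and 131 ± 21.3 CPM unstimulated (log2 fold change -1.39 ± 0.13, adjusted p = 2.5e-10).

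The resting program was lower in 18 of 23 tested genes and higher in 3, with a median log2 fold change of -1.71. Il7r, the receptor for the survival cytokine IL-7, stood at 13.1, 12.8, 18.2 and 21.1 CPM in the KO CompA libraries, against 455, 359, 463 and 471 CPM in the KO unstimulated libraries (log2 fold change -4.74 ± 0.46, adjusted p = 2e-10). S1pr1, which guides exit from lymph nodes, averaged 47.8 ± 7.73 CPM with CompA and 480.04 ± 47.3 CPM unstimulated (log2 fold change -3.33 ± 0.31, adjusted p = 1.3e-10), and Klf2, the factor that maintains S1pr1 and quiescence, averaged 51.8 ± 7.22 CPM with CompA and 573 ± 106 CPM unstimulated (log2 fold change -3.47 ± 0.30, adjusted p = 2.1e-11). No library of any of these 3 genes overlapped with the other group. Ccr7, the receptor that keeps cells in the T cell zone, was one of the 3 that rose, at 1884, 1063, 1398 and 1708 CPM in the KO CompA libraries, against 510.2, 414, 446 and 446 CPM in the KO unstimulated libraries (log2 fold change 1.74 ± 0.15, adjusted p = 1.6e-11). Regulatory T cell markers fell in 8 of 13 cases and rose in 2, where of all tested genes 39.3% fell and 39.2% rose. Foxp3, which defines this lineage, averaged 69 ± 22.6 CPM with CompA and 126 ± 13.3 CPM unstimulated (log2 fold change -0.86 ± 0.25, adjusted p = 0.0029), and Ikzf2, the factor Helios, averaged 69.8 ± 26.9 CPM with CompA and 147 ± 21.1 CPM unstimulated (log2 fold change -1.07 ± 0.29, adjusted p = 0.0016).

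Most growth genes rose. Ribosome biogenesis genes rose in 29 of 30 cases with a median log2 fold change of 1.95, translation initiation factors in 32 of 34 (median 1.41), and genes of polyamine and nucleotide synthesis in 20 of 21 (median 1.97), and no member of the 3 lists fell. Polr1b, a subunit of RNA polymerase I, stood at 217, 206, 198 and 195 CPM in the KO CompA libraries, against 34.1, 34.1, 29.9 and 31.2 CPM in the KO unstimulated libraries (log2 fold change 2.66 ± 0.10, adjusted p = 8e-19). Nop56, a core protein of small nucleolar particles, averaged 285 ± 14.6 CPM with CompA and 57.9 ± 6.18 CPM unstimulated (log2 fold change 2.3 ± 0.096, adjusted p = 5.9e-18). Odc1, the rate-limiting enzyme of polyamine synthesis, averaged 949 ± 141 CPM with CompA and 97.4 ± 16.9 CPM unstimulated (log2 fold change 3.28 ± 0.17, adjusted p = 5.7e-16). The E-box CACGTG, the word bound by MYC, stood in 13.4% of 2391 promoters of genes that rose by at least 1 log2 unit, in 7.3% of 3190 promoters of genes that fell as much and in 9.98% of the 12530 of tested genes, a description of letters with no test. Cytosolic ribosomal protein genes moved less, with 44 of 74 higher, 1 lower and a median of 0.52. With library totals 28 were higher and 5 lower. In WT cells with CompA, against WT unstimulated cells, 9 of the 74 were higher and 23 lower (median -0.158). The difference between these changes, KO minus WT, had a median of 0.683 and was called for 1 gene. Many cytosolic ribosomal protein genes have near-identical pseudogenes, so their counts are uncertain. Proteasome genes rose in 39 of 42 cases (median 1.82).

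Nutrient uptake and one-carbon genes rose in the same way. Of the amino acid transporters 13 of 15 rose and 2 fell. Slc7a5, the large neutral amino acid carrier, averaged 503 ± 81.1 CPM with CompA and 53.5 ± 3.39 CPM unstimulated (log2 fold change 3.23 ± 0.18, adjusted p = 1.3e-15). Serine and one-carbon enzymes rose in 12 of 14 cases and none fell, among them Phgdh, the first enzyme of serine synthesis (log2 fold change 2.57 ± 0.12, adjusted p = 8.1e-17), and Shmt2, the mitochondrial serine hydroxymethyltransferase (log2 fold change 2.78 ± 0.11, adjusted p = 1.2e-18). Of the glycolysis and hypoxia genes 20 of 29 rose and 5 fell. Hk2, the inducible hexokinase, stood at 76, 97.5, 102 and 88.6 CPM in the KO CompA libraries, against 3.4, 5.97, 5.41 and 8.11 CPM in the KO unstimulated libraries (log2 fold change 4.0 ± 0.29, adjusted p = 6.8e-13), with no overlap between the groups. Slc2a1, the glucose transporter GLUT1, averaged 123 ± 44.2 CPM with CompA and 38 ± 2.16 CPM unstimulated (log2 fold change 1.69 ± 0.17, adjusted p = 5.7e-10). Cholesterol genes rose in 20 of 23 cases with none lower (median 1.23), for example Sqle, squalene epoxidase (log2 fold change 2.13 ± 0.15, adjusted p = 6.1e-13). Fatty acid synthesis genes were 5 higher and 5 lower of 13, shares near those of all tested genes (39.2% and 39.3%). Their median log2 fold change was -0.138, with members from -2.135 to 2.12. Acaca and Fasn, the committed and the chain-building enzyme, rose with log2 fold changes of 2.12 and 1.63. Of the fatty acid oxidation genes 9 of 18 rose and 3 fell (median 0.311), against 39.2% and 39.3% of all tested genes. Cpt1a, the gate of this pathway, was the lowest member of the list. It fell to 24.8 ± 5.17 CPM with CompA, against 76.2 ± 9.24 CPM unstimulated (log2 fold change -1.62 ± 0.18, adjusted p = 3.3e-09).

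Most mitochondrial genes rose. All 77 mitochondrial ribosomal protein genes rose (median log2 fold change 1.44), as did 35 of 36 genes of respiratory complex I (median 1.14), 34 of 35 of complexes III to V (median 1.29) and 23 of 27 of the TCA cycle (median 0.89, 2 lower). Cycs, cytochrome c, averaged 61.6 ± 6.88 CPM with CompA and 13 ± 0.794 CPM unstimulated (log2 fold change 2.24 ± 0.13, adjusted p = 3.8e-15), and Mrpl12, of the large mitochondrial ribosomal subunit, averaged 200.04 ± 31.2 CPM with CompA and 42.1 ± 2.82 CPM unstimulated (log2 fold change 2.25 ± 0.18, adjusted p = 3.1e-12). Tfam, which packages and transcribes mitochondrial DNA, averaged 125 ± 7.96 CPM with CompA and 76.6 ± 5.25 CPM unstimulated (log2 fold change 0.71 ± 0.084, adjusted p = 1.4e-08). Esrra, the gene for ERR-alpha, stood at 38.4, 39.2, 29.2 and 32.4 CPM in the KO CompA libraries, against 34.3, 41, 35 and 32 CPM in the KO unstimulated libraries and did not pass the test (log2 fold change -0.031 ± 0.13, adjusted p = 0.84). With library totals its log2 fold change was -0.316 with an adjusted p of 0.00805.

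Replication and mitosis genes moved in opposite directions. DNA replication genes rose in 28 of 33 cases and fell in 2 (median 1.33), while of 24 mitosis and spindle genes none rose and 16 fell (median -1.1). Of the 24, 1 was higher at an unadjusted p under 0.05 in edgeR and 0 in DESeq2. In 6 of the 24 every KO CompA library lay below every unstimulated one, against 34.8% of all tested genes. In KO stimulated over KO unstimulated cells 3 of the 24 rose and 7 fell (median -0.465). Mcm2, a subunit of the replicative helicase, stood at 345, 269, 367 and 368 CPM in the KO CompA libraries, against 77.4, 78.3, 82.1 and 82.5 CPM in the KO unstimulated libraries (log2 fold change 2.07 ± 0.13, adjusted p = 3.5e-14). Ccnd2, the D-type cyclin of G1, averaged 1346 ± 105 CPM with CompA and 526 ± 46 CPM unstimulated (log2 fold change 1.36 ± 0.094, adjusted p = 1.9e-13), and Cdkn1b, the CDK inhibitor p27, averaged 50.9 ± 3.69 CPM with CompA and 166 ± 11.2 CPM unstimulated (log2 fold change -1.71 ± 0.15, adjusted p = 3.5e-11). Mki67, the proliferation antigen, stood at 1.01, 0.501, 8.06 and 2.78 CPM in the KO CompA libraries, against 25.1, 14.5, 26.8 and 19 CPM in the KO unstimulated libraries (log2 fold change -2.75 ± 0.70, adjusted p = 0.00085), and Cdk1, the mitotic kinase, averaged 8.17 ± 3.84 CPM with CompA and 7.46 ± 2.71 CPM unstimulated without passing the test (adjusted p = 0.75). Cdkn1a, the p53-induced inhibitor p21, stood at 52.7, 223, 37.3 and 52.2 CPM in the KO CompA libraries, against 2.54, 2.19, 3.92 and 4.19 CPM in the KO unstimulated libraries (log2 fold change 4.83 ± 0.71, adjusted p = 5.8e-07). With CompA, replicate 2 was far above the other 3 libraries, and all 4 lay above the unstimulated ones.

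Interferon-stimulated genes fell in 24 of 28 cases and rose in 2 (median -2.32). Irf7, an inducer of type I interferon, stood at 12.5, 5.94, 6.58 and 5.28 CPM in the KO CompA libraries, against 69.1, 78.4, 78 and 78.3 CPM in the KO unstimulated libraries (log2 fold change -3.33 ± 0.31, adjusted p = 1.3e-10). Isg15, a ubiquitin-like modifier, averaged 10.8 ± 3.82 CPM with CompA and 30.6 ± 4.13 CPM unstimulated (log2 fold change -1.5 ± 0.25, adjusted p = 5.7e-06). The fall of the macrophage and dendritic marker sum given above moved with these genes, and its part was not tested. The 10 largest falls by the same rule as the rises were Col14a1, Stab2, Emr4, Mrc1, Clec4a1, Hfe, Cd163, C6, Csf1r and Tlr8. The share of all genes whose KO CompA libraries all lay below the unstimulated ones was 34.8%. Several of the 10 are known as macrophage genes, such as Csf1r, the receptor of the macrophage growth factor, at 0.618, 0.876, 1.1 and 1.45 CPM in the KO CompA libraries, against 201, 355, 268 and 529.5 CPM in the KO unstimulated libraries (log2 fold change -8.37 ± 0.52, adjusted p = 1.9e-14). Mrc1, the macrophage mannose receptor, averaged 0.112 ± 0.0813 CPM with CompA and 131 ± 50.02 CPM unstimulated. Col14a1, a collagen, and Stab2, a scavenger receptor of sinusoidal endothelium, had no count in any KO CompA library and 10.4, 13.8, 9.53 and 22.4 CPM and 7.11, 14.3, 12.1 and 21.9 CPM in the unstimulated ones, at least 344-fold and at least 339-fold lower by the bound of 3 counts over the group.

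Stress genes mostly rose. Of the ATF4 stress genes 10 of 16 tested rose and 3 fell (median 1.66, and 10 higher and 5 lower without replicate 2 of every KO treatment). Of all tested genes 39.2% rose and 39.3% fell. In the ATF4 pathway amino acid shortage or endoplasmic reticulum stress raises translation of the factor ATF4, which binds composite elements of its targets. Trib3, a pseudokinase that restrains ATF4 signalling, stood at 22, 24.7, 15.1 and 19.7 CPM in the KO CompA libraries, against 4.1, 3.38, 3.05 and 2.49 CPM in the KO unstimulated libraries (log2 fold change 2.64 ± 0.30, adjusted p = 5.9e-09). Chac1, which breaks down glutathione, averaged 5.95 ± 1.57 CPM with CompA and 0.237 ± 0.282 CPM unstimulated (log2 fold change 4.64 ± 0.54, adjusted p = 8e-09), and Asns, asparagine synthetase, averaged 18.9 ± 2.3 CPM with CompA and 1.54 ± 0.384 CPM unstimulated (log2 fold change 3.62 ± 0.24, adjusted p = 1.1e-13). Every KO CompA library of the 3 genes lay above every unstimulated one. Ddit3, the factor CHOP, averaged 11.5 ± 4.65 CPM with CompA and 14.2 ± 1.35 CPM unstimulated and did not pass the test (adjusted p = 0.31, and 0.0287 at a log2 fold change of -0.515 without replicate 2). The promoters of Trib3 (chr2:152344011-152344310, minus strand), Chac1 (chr2:119350992-119351291, plus strand) and Asns (chr6:7693160-7693459, minus strand) are shown because each holds 1 word of the ATF4 composite element, TGATGNAA on either strand, in capitals. It lies 15 bases into the Trib3 transcript, 193 bases before the Chac1 start and 23 bases before the Asns start, in RefSeq sequence of GRCm38.p6.
Trib3: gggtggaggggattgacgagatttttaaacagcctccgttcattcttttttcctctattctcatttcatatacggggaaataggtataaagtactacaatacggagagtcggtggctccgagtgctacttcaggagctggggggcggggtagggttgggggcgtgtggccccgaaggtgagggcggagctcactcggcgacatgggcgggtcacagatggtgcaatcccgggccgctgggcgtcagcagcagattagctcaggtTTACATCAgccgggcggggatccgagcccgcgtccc
Chac1: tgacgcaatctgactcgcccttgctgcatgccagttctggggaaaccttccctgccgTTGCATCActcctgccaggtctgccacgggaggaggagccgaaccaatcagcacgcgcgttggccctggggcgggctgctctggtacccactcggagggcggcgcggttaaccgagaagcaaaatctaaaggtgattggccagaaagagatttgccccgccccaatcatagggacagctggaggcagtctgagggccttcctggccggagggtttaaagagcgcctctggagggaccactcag
Asns: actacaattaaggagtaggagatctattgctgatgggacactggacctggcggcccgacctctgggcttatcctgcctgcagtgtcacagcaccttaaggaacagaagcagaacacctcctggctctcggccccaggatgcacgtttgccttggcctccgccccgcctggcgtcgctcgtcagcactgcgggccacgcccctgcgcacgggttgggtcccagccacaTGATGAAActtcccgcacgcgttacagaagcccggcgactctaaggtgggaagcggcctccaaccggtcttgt
The word stood in 7 of 20 promoters of the ATF4 list (35%), in 2.43% of promoters of tested genes and in 3.97% of all 32851 promoters of this length. It stood in 2.17% of promoters of genes that rose by at least 1 log2 unit and in 3.1% of those that fell as much. The list was drawn up as ATF4 genes, so its share is not a result of the comparison. Heat shock genes rose in 14 of 18 cases, NRF2 targets in 14 of 16 and genes of the unfolded protein response in 16 of 24, with 1, 2 and 5 lower. Without CompA (KO stimulated over KO unstimulated cells) 12, 12 and 15 genes of these lists rose and 5, 2 and 6 fell. The direct test against KO stimulated cells had medians of -0.031, -0.038 and 0.062. It called 3, 3 and 3 genes higher with CompA and 3, 1 and 2 lower. Hspa5, the chaperone BiP, averaged 1468 ± 47.6 CPM with CompA and 620.5 ± 35.2 CPM unstimulated (log2 fold change 1.24 ± 0.092, adjusted p = 1e-12), and Gclm, the modifier subunit of glutathione synthesis, averaged 65.2 ± 13.2 CPM with CompA and 27.6 ± 1.17 CPM unstimulated (log2 fold change 1.24 ± 0.12, adjusted p = 2.4e-10).

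**Figure D4:**
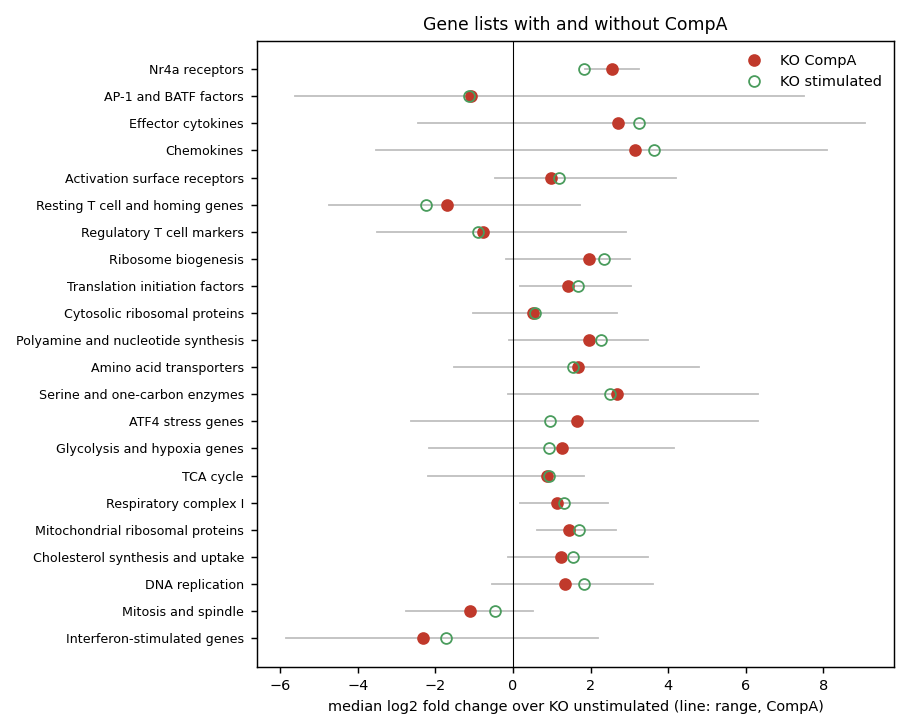
Median log2 fold change over tested members of 22 gene lists against KO unstimulated cells, for KO CompA (filled circles) and KO stimulated cells (open circles), with the lowest and highest member under CompA as a thin line. Both sets of medians share the 4 unstimulated libraries. Growth and mitochondrial lists lie right of 0 for both, resting, interferon and mitosis lists left of 0.

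Where activation under CompA stopped short of activation without it, or went past it, was tested directly as KO CompA against KO stimulated cells. Of 12332 genes 1255 (10.2%) were higher with CompA and 1123 (9.11%) lower, of them 107 (0.868%) and 117 (0.949%) by at least 1 log2 unit. Libraries of the same number moved together in these 2 groups, and with that number as a replicate block 1863 genes were higher and 1958 lower. Without replicate 1 of KO stimulated cells 783 were higher, and without replicate 2 of every KO treatment 972 were higher and 997 lower. Ribosome biogenesis stood lower with CompA in 22 of 30 genes and higher in none (median -0.38), mitochondrial ribosomal proteins in 33 of 77 (median -0.33), DNA replication in 13 of 33 (median -0.37), translation initiation in 13 of 34, interferon-stimulated genes in 9 of 28 and cholesterol genes in 8 of 23. Nop56 stood at 295, 263, 291 and 289 CPM in KO CompA and 383, 308, 391 and 362 CPM in KO stimulated libraries (log2 fold change -0.34 ± 0.092, adjusted p = 0.0086). Mcm5, a second helicase subunit, averaged 342 ± 66.2 CPM with CompA and 542 ± 128 CPM without it (log2 fold change -0.66 ± 0.14, adjusted p = 0.0019). Both genes rose under CompA over unstimulated cells, to a level below the stimulated one, whereas most interferon-stimulated genes were below unstimulated cells in both groups. No mitosis or spindle gene of 24 was called by edgeR, at a median of -0.68, while 5 had an unadjusted p under 0.05 and DESeq2 called 1.

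Genes higher with CompA than in KO stimulated cells included 10 of 29 lysosome genes, 6 of 23 resting genes, 6 of 18 fatty acid oxidation genes and 4 of 16 ATF4 genes. The 5 largest rises among called genes that averaged at least 10 CPM in the higher group, with no overlap between libraries, were Gpt2, Trib3, Pck2, Vegfa and Gsn. Gpt2 (chr8:85492576-85528902), a mitochondrial alanine aminotransferase, stood at 15.2, 13.3, 15.8 and 14.1 CPM in KO CompA and 1.82, 3.03, 2.45 and 2.48 CPM in KO stimulated libraries (log2 fold change 2.58 ± 0.27, adjusted p = 5.5e-07). Its unstimulated level was 1.31 ± 0.166 CPM, and cells given XCT790 had 10.4 ± 2.9 CPM. Both groups given a compound lay above both groups without one. Trib3 stood at 22, 24.7, 15.1 and 19.7 CPM in KO CompA and 3.22, 9.82, 3.8 and 3.31 CPM in KO stimulated libraries (log2 fold change 2.03 ± 0.29, adjusted p = 3.1e-05), and Chac1 averaged 5.95 ± 1.57 CPM with CompA and 0.902 ± 0.633 CPM without (log2 fold change 2.75 ± 0.46, adjusted p = 0.00016). Pck2, the mitochondrial PEP carboxykinase, averaged 43.8 ± 3.42 CPM with CompA, 11.9 ± 3.08 CPM in KO stimulated and 37.2 ± 4.69 CPM in KO unstimulated cells, so that it differed from stimulated cells (log2 fold change 1.88 ± 0.20, adjusted p = 5.7e-07) and passed no test against unstimulated ones (adjusted p = 0.26). Cdkn1b, Foxo1, a factor of quiescence, and Cpt1a lay between the stimulated and the unstimulated level, with log2 fold changes over KO stimulated cells of 0.74, adjusted p = 0.001, of 0.53, adjusted p = 0.0053 and of 0.77, adjusted p = 0.0032.

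The 5 largest falls against KO stimulated cells within the same limits were Il3, Ifitm2, 1110032F04Rik, Rgs2 and Car12. Rgs2, a regulator of G protein signalling, stood at 12.5, 15.5, 12 and 12.6 CPM in KO CompA, 36, 32.6, 29.9 and 29 CPM in KO stimulated and 119, 62.7, 108 and 119 CPM in KO unstimulated libraries (log2 fold change -1.28 ± 0.18, adjusted p = 2.5e-05 over stimulated). It had fallen with stimulation and stood lower still with CompA. Car12, a carbonic anhydrase, averaged 12.4 ± 0.873 CPM with CompA and 29.9 ± 5.73 CPM without (log2 fold change -1.27 ± 0.19, adjusted p = 5.5e-05). Il3 averaged 3.54 ± 1.7 CPM with CompA and 10.2 ± 3.5 CPM without (log2 fold change -1.53 ± 0.48, adjusted p = 0.026), and this call was lost when any 1 of 5 of these libraries was left out. Irf4, Myc, Il2ra, Cd69 and Tbx21 did not differ between KO CompA and KO stimulated cells by this test, with log2 fold changes of 0.068 ± 0.12, -0.11 ± 0.13, 0.16 ± 0.16, 0.19 ± 0.23 and 0.27 ± 0.29, which does not show that they were equal. The test did not pair libraries by number, and the fit with the replicate block was not read for these genes. Nr4a3 was higher with CompA (log2 fold change 0.91 ± 0.17, adjusted p = 0.00041), as was Nr4a1 (log2 fold change 0.72 ± 0.23, adjusted p = 0.024). The call for Nr4a1 was lost when any 1 of 4 of these libraries was left out.

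**Figure D5:**
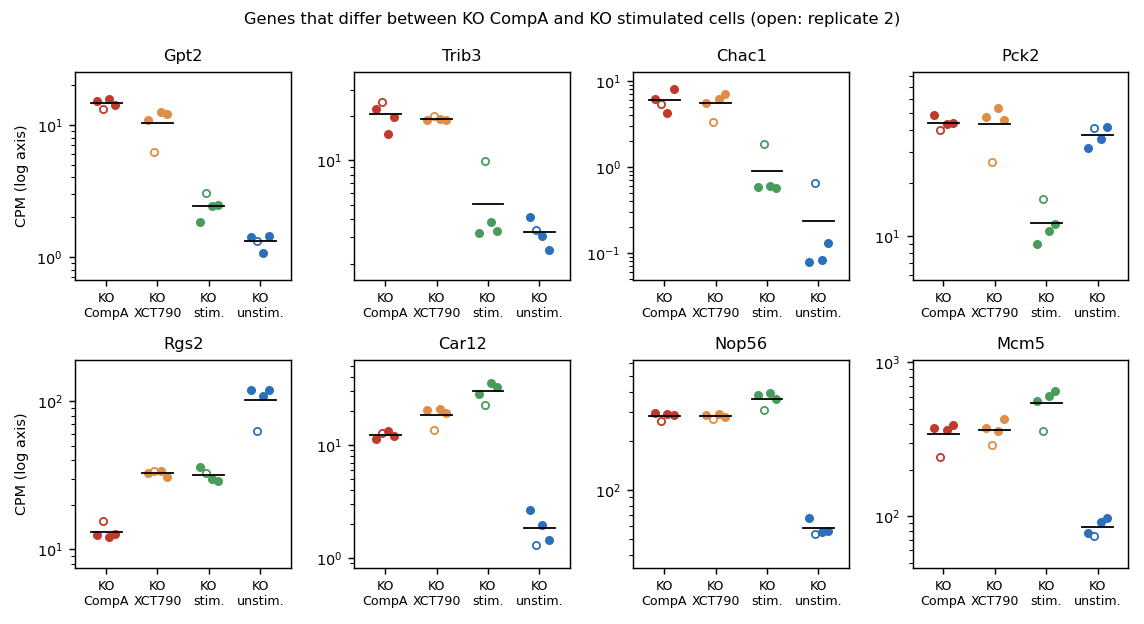
CPM (log axis) of 8 genes in each KO library, from left to right KO CompA, KO XCT790, KO stimulated and KO unstimulated, with replicate 2 as open symbols and a bar at the mean. Gpt2, Trib3 and Chac1 are high with either compound, Pck2 is low in stimulated cells alone, Rgs2 and Car12 are lower with CompA than in stimulated cells, and Nop56 and Mcm5 reach most of the stimulated level.

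XCT790 at the same labelled dose and time is the nearest comparison. Against KO unstimulated cells it called 4889 genes higher (39.6%) and 4860 lower (39.4%), from the same 4 unstimulated libraries, and 3733 and 6021 with library totals. KO CompA against KO XCT790 called 157 genes higher (1.27%) and 243 lower (1.97%), and 269 and 213 with library totals. These counts moved by over 1.5 times when single libraries were left out. Without replicate 4 of KO CompA 69 were higher and 117 lower, and without replicate 1 of KO XCT790 84 and 144. The higher calls numbered 103 without replicate 3 of KO XCT790, and the lower calls 138 without replicate 3 of KO CompA and 155 without replicate 4 of KO XCT790. Of the fatty acid synthesis genes 5 of 13 were lower with CompA and none higher, and of the cholesterol genes 11 of 23 were lower and none higher. Hmgcs1, the synthase feeding the cholesterol pathway, averaged 138 ± 31.5 CPM with CompA and 228 ± 42.4 CPM with XCT790 (log2 fold change -0.72 ± 0.14, adjusted p = 0.0033). Gsn, the actin-severing protein gelsolin, averaged 46.9 ± 17.3 CPM with CompA and 19 ± 6.4 CPM with XCT790 (log2 fold change 1.31 ± 0.22, adjusted p = 0.0009). For Trib3 the 2 compounds did not differ by the test, at 20.4 ± 4.08 CPM with CompA and 19 ± 0.624 CPM with XCT790 (log2 fold change 0.099 ± 0.27, adjusted p = 0.94).

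The same comparison in WT cells, whose libraries are all separate, called 4593 genes higher (37.2%) and 5063 lower (41.1%) with CompA. The difference between the genotypes was tested as an interaction, KO change minus WT change. It called 339 genes (2.75%) with a more positive change in KO-labelled cells and 138 (1.12%) with a more negative one, and 188 and 183 with library totals. These counts too moved with the library left out. The positive calls numbered 223 without replicate 4 of KO CompA, 199 and 196 without replicates 1 and 3 of KO unstimulated cells, 224, 605, 195 and 173 without replicates 1 to 4 of WT CompA cells, and 206, 745 and 529 without replicates 1, 2 and 4 of WT unstimulated cells. The negative calls numbered 91 without replicate 1 of KO CompA, 87, 74 and 78 without replicates 1, 3 and 4 of WT CompA cells, and 85 without replicate 3 of WT unstimulated cells. The median interaction over all genes was 0.111. Lag3 changed less in KO-labelled cells, with 323 ± 94.3 CPM with CompA and 141 ± 41.5 CPM unstimulated in KO, and 348 ± 63.3 CPM with CompA and 28.7 ± 5.83 CPM unstimulated in WT (interaction log2 fold change -2.4 ± 0.34, adjusted p = 0.00014). The CompA levels overlapped and the unstimulated ones did not. Egr2 had the same form, with 73 ± 11.6 CPM with CompA and 31.9 ± 4.48 CPM unstimulated in KO, and 70.9 ± 4.12 CPM with CompA and 13.2 ± 2.74 CPM unstimulated in WT (interaction log2 fold change -1.22 ± 0.21, adjusted p = 0.0014). Nr4a3 (interaction log2 fold change -1.29 ± 0.25, adjusted p = 0.0047) and Irf4 (interaction log2 fold change -0.82 ± 0.17, adjusted p = 0.0072) also rose by less in KO-labelled cells. S1pr1 fell less, to 47.8 ± 7.73 CPM with CompA in KO and 19.3 ± 9.21 CPM in WT (interaction log2 fold change 1.75 ± 0.41, adjusted p = 0.017). Among the 23 tested macrophage and dendritic markers 6 fell less in KO-labelled cells, whose unstimulated sum of these markers was 1996 ± 705 CPM, against 3907 ± 682 CPM in WT unstimulated cells. Itgb5, an integrin subunit among the largest positive interactions, averaged 1.4 ± 0.439 CPM with CompA and 30.2 ± 10.3 CPM unstimulated in KO, and 0.176 ± 0.0457 CPM with CompA and 54.3 ± 17.4 CPM unstimulated in WT (interaction log2 fold change 3.78 ± 0.64, adjusted p = 0.0015).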

How the data were processed

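Poly(A) RNA of 32 libraries (8 groups of 4) was sequenced with a directional kit, per the labels' protocols. The authors deposited whole-number counts per gene. The submitters' processing notes name Trimmomatic 0.36, HISAT2 2.1.0, SAMtools, HTSeq 0.9.1, R 3.4.4 and DESeq2 1.18.1 and the build mm10, without their roles. No source used here states the strand setting of the counting, so overlapping antisense genes cannot be told apart. The deposited counts list 24302 genes and 5 summary lines. The summary lines were left out. Across libraries, reads without a feature were 5.31% to 13.3% of those in genes, ambiguous or in no feature. Alignments that were not unique are outside this share and numbered 58.6 to 91.3 per 100 counts in genes. Libraries held 16020288 to 23687940 counts in genes.

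Groups were taken from the sample titles. All 32 libraries were fitted together with edgeR 4.0.16 (R 4.3.3, limma 3.58.1) as a mean per group, with TMM factors, the default low-count filter (12332 genes kept), the quasi-likelihood test and Benjamini-Hochberg adjustment over all genes tested. DESeq2 1.42.0, limma-voom, other scalings and filters, left-out libraries and a replicate block were alternatives. On simulated counts for KO CompA against KO unstimulated (12289 genes), only 66, 67 and 67 genes were changed, by 0.5, 1 and 2 on the log2 scale. Of these 40.9%, 74.6% and 98.5% were called, and 8 of 151 calls were false. In the data 9671 of 12332 genes passed the test, so these shares do not give the recovery or the false calls of the comparison itself. Same-numbered KO CompA and KO stimulated libraries deviated together (correlations 0.583 to 0.821), which pairs them by number, a link the labels do not state.

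Bounds against a group at 0 use 3 counts over the group and cover counting error only. Genes were named by a rule: the NR4A genes and Esrra, the 10 largest called rises and falls among genes that average 10 CPM or more where they are higher and whose groups do not overlap, the 5 largest differences of each kind against KO stimulated cells, and preset members and the smallest p-values of each list. A gene that the rule names is not reported here. Members and lists were chosen with earlier results of these data known. Gene positions (24153 of 24302 genes matched) and promoter sequences are from RefSeq, GRCm38.p6.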

Additional observations from a re-analysis of the deposited data

Results flagged for a closer look

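Of 202 groups of 4 libraries examined, 15 held a library far from the other 3 by a gap test, and chance gives about 1 such group in 20. KO CompA replicate 2 was far from its group with 47.2 CPM for Ak4 (highest), 282 CPM for Ccl4 (highest), 28.8 CPM for Cd8a (highest), 223 CPM for Cdkn1a (highest), 11 CPM for Mt1 (highest), 1090.4 CPM for Tfrc (highest), 465 CPM for the sum of the list B cell and plasma cell markers (highest) and 189 CPM for the sum of the list Erythroid, platelet and granulocyte markers (highest). KO unstimulated replicate 2 was far from its group with 27.3 CPM for Cd8a (highest), 359 CPM for Il7r (lowest) and 1346 CPM for the sum of the list B cell and plasma cell markers (highest). KO unstimulated replicate 4 was far from its group with 1.13 CPM for Enox1 (highest). KO unstimulated replicate 1 was far from its group with 69.1 CPM for Irf7 (lowest). KO CompA replicate 1 was far from its group with 16.5 CPM for Isg15 (highest). KO CompA replicate 3 was far from its group with 328 CPM for Junb (lowest). In all, 8 of the 15 were replicate 2 of KO CompA and 3 replicate 2 of KO unstimulated cells.

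For 13 named genes the change from unstimulated to CompA differed between KO-labelled and WT cells by the interaction (log2, KO minus WT, edgeR, adjusted p under 0.05). It was more negative in KO-labelled cells for Cst7 (-1.20, adjusted p = 0.0006), Egr2 (-1.22, adjusted p = 0.0014), Grhl1 (-2.07, adjusted p = 0.011), Irf4 (-0.82, adjusted p = 0.0072), Lag3 (-2.40, adjusted p = 0.00014), Nr4a2 (-1.89, adjusted p = 0.011), Nr4a3 (-1.29, adjusted p = 0.0047) and Pck2 (-1.03, adjusted p = 0.028). It was more positive in KO-labelled cells for Irf7 (1.83, adjusted p = 0.02), Isg15 (1.45, adjusted p = 0.023), Itgb5 (3.78, adjusted p = 0.0015), Mt1 (3.00, adjusted p = 0.013) and S1pr1 (1.75, adjusted p = 0.017). The calls for Irf7, Isg15 and Pck2 were lost when single libraries were left out, and those for Isg15 and Nr4a2 in limma-voom.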

How the results depend on the processing

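Of 106 named genes compared between KO CompA and KO unstimulated cells, 97 kept their direction and side of the threshold in every alternative fitted. Among named genes that the main fit called, the same held for 22 of 34 against KO stimulated cells, 5 of 12 against KO XCT790 cells and 9 of 13 interactions. Genes that it did not call were not followed in these latter comparisons. No gene that was followed reversed a call. Leaving out single libraries gave 4651 to 4773 genes higher and 4703 to 4921 lower in KO CompA than in KO unstimulated cells. It gave 783 to 1304 higher and 766 to 1323 lower against KO stimulated cells, and 69 to 154 higher and 117 to 230.0 lower against KO XCT790 cells. It gave 173 to 745 positive and 74 to 176 negative interactions, the lowest counts without single WT CompA libraries. For KO CompA against KO XCT790, library totals gave 269 genes higher and DESeq2 283. Interactions numbered 188 positive with library totals, 520 positive and 247 negative in DESeq2, and 1115 positive and 426 negative with a replicate block nested in genotype. At a log2 fold change of at least 2 in WT cells, 485 raised genes were higher and 140 lowered genes lower in KO CompA cells, 94.4% and 95.2% of each set. The cause was not tested. Same-numbered KO CompA and KO unstimulated libraries correlated at 0.074, 0.421, 0.331 and 0.34, and those of unlike number at -0.263 to 0.303. The main fit did not pair these libraries by number. With the replicate block their comparison gave 4959 genes higher and 4972 lower, and KO CompA against KO stimulated cells gave 1863 higher and 1958 lower. Library totals moved the median of all genes by -0.278, upper-quartile factors by -0.238. Changes of 0.5 on the log2 scale were often missed in simulated data in which few genes changed, unlike the data here.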
